A study of Mus musculus with 8 samples.

Results

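Fragments of 18S ribosomal RNA (rRNA) were measured by small RNA sequencing of mature mouse sperm. A fragment is a distinct read sequence, and it was taken as an 18S fragment when 18S rRNA was the only rRNA named in its deposited annotation and no tRNA or miRNA was named. There were 34791 such fragments among 5724730 distinct sequences, with 1913293 of 115750464 reads. Of these, 479 reached at least 50 reads in at least 4 of the 8 libraries and were tested, and they held 49.3% of the 18S reads.

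The study asked how acute activation of AgRP neurons, the hunger-promoting neurons of the hypothalamus, bears on the RNA of sperm. Activated mice were Agrp Cre/+ and control mice were Agrp +/+, with 4 mice and 4 libraries in each group. All 8 mice were operated on at 8 weeks of age and received an AAV that carries the excitatory receptor hM3Dq, a DREADD, in the arcuate nucleus, and all were given the ligand CNO at 1 mg/kg 3 weeks later, after food had been removed for 1 h. The receptor depends on Cre, so it was expressed in AgRP neurons of the Cre/+ mice, and the groups differ in the Cre allele as well as in activation. Sperm was collected from the caudae epididymides 4 h after CNO. Libraries of activated mice held 14903635, 17489698, 14757501 and 9409491 reads and those of control mice 12421068, 23123740, 9297271 and 14348060 reads.

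18S rRNA is the RNA core of the small ribosomal subunit, which decodes messenger RNA. It is cut out of the 45S precursor together with 5.8S and 28S rRNA, while 5S rRNA is transcribed on its own. Sperm shed most of their cytoplasm and translate little, and much of their rRNA is found in pieces, which small RNA sequencing reads as rRNA-derived small RNAs.

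The 18S fragments overlap and gave pieces of 1209, 332, 308 and 19 nt. Fragments with other labels joined these pieces and supplied the base at position 1. Positions are counted from 1 at the 5′ end of the rebuilt 18S sequence, over 1870 nt. The most abundant 18S fragments came from 2 places, and they are shown first because they carry the largest share of the 18S reads. Around position 750 the capitals mark the bases that the 3 fragments share.

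18S 747-771: ctCTCGGCGCCCCCTCGATGCTCTt
18S 747-770: ctCTCGGCGCCCCCTCGATGCTCT
18S 749-771: CTCGGCGCCCCCTCGATGCTCTt

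Around position 800 the fragments form a ladder of ends, and the capitals mark the bases that all 7 named fragments share, of which 3 are shown.

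18S 794-837: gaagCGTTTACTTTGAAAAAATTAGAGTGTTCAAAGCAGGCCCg
18S 796-837: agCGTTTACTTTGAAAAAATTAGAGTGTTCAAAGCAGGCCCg
18S 798-837: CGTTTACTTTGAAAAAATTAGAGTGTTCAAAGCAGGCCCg

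The next fragments had the smallest p-values among the lower ones, and within each of the first 2 sites the capitals mark the bases shared by its fragments. The 28 nt fragment at 1034-1061 is the most abundant of its window and is shown for comparison.

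18S 893-913: tTGGTTTTCGGAACTGAGGCC
18S 894-913: TGGTTTTCGGAACTGAGGCC
18S 1037-1052: AGTCGGAGGTTCGAAG
18S 1032-1052: acgaaAGTCGGAGGTTCGAAG
18S 1034-1061: gaaAGTCGGAGGTTCGAAGacgatcaga
18S 1381-1400: cgaacgagactctggcatgc

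In mm10, positions 600 to 1870 of the rebuilt 18S align to the lincRNA gene Gm42418 on the plus strand (exon at chr17:39846958-39848788 in GENCODE M21), which overlaps the RefSeq pseudogene Rn18s-rs5 (chr17:39846354-39848202). The fragment 747-771 lies at chr17:39847105-39847129, 796-837 at chr17:39847154-39847195, 893-913 at chr17:39847251-39847271 and 1381-1400 at chr17:39847739-39847758. Positions 1 to 599 were not compared with the genome, and other places in mm10 were not analysed here. These are places where the sequence occurs in the build, and the reads cannot be assigned to this copy rather than to the rRNA gene repeats. Relative to the rebuilt sequence the copy differs at 6 bases, written as 18S base, position and copy base (G1045T, C1068T, G1077A, G1100A, T1660C and C1779T), and it lacks 27 nt at positions 1737 to 1763.

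18S reads made up 12647, 17129, 11894 and 16685 RPM (reads scaled to the total of the library) in activated replicates 1 to 4, and 16188, 20867, 22723 and 13790 RPM in control replicates 1 to 4. Control replicates 2 and 3 lay above all activated libraries, but control replicates 1 and 4 lay below activated replicates 2 and 4, so the groups overlapped. The mean was 14589 ± 2701 RPM in activated and 18392 ± 4120 RPM in control mice (SD, n = 4 per group), a ratio of 0.793 (two-sided exact permutation test over 70 assignments, p = 0.171). The smallest p that 4 against 4 allows is 0.0286.

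**Figure D1:**
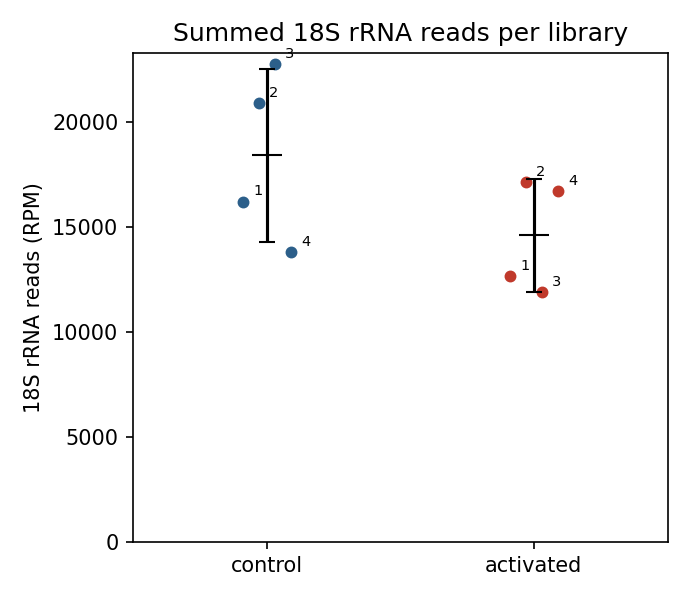
Summed 18S rRNA reads in each library, in RPM on the vertical axis, by group. Points are libraries with their replicate number, and the bar is the mean with the SD (n = 4). The groups overlap, with control replicates 1 and 4 at 16188 and 13790 RPM.

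The libraries also differ in mitochondrial rRNA in a way that the groups do not explain. Reads labelled 16S or Mt_rRNA, which were all found in the mitochondrial genes mt-Rnr2 and mt-Rnr1 where they occurred in at least 4 libraries, took with the 12S label 2.05%, 8.35%, 7.68% and 1.80% of the activated libraries and 7.11%, 2.06%, 7.51% and 2.24% of the control libraries. Both sets hold 2 libraries of each group. The ratio of 18S RPM was 0.846 in the set poor in mitochondrial rRNA and 0.746 in the set rich in it, so both were below 1, with 2 libraries per group in each and no test.

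Of the 479 tested fragments, edgeR called 0 (adjusted p below 0.05 with a log2 fold change beyond 1 in size), against 0.505% of all 12077 tested fragments, which were all higher, with 0% called lower. At an unadjusted p under 0.05, 52 of the 479 were lower and 0 were higher, against 4.12% lower and 3.12% higher among all tested fragments. Of the 52, 22 lay in the stretch 1027-1061 described further on. The count fell to 18 without control replicate 3 (4.23%, against 2.70% of all fragments), 25 without activated replicate 2 (6.23%, against 2.57%) and 29 without control replicate 4 (6.82%, against 3.08%). It was 34 when only the library size was used (7.10%, against 3.53%) and 32 among annotated fragments (6.68%, against 3.89%). With the mitochondrial rRNA share as a covariate it was 70 (14.6%, against 5.09%), and with DESeq2 56 (11.7%, against 4.12%). DESeq2 with apeglm called 3 of the 479, all lower, against 0.373% of all fragments called lower and 1.99% called in either direction, and 2 of the 3 had reached 50 reads in control libraries only. DESeq2 gave no p for 19 of the 479, of which 17 lay in the stretch 1027-1061, so it could not call them. In total 373 of 479 (77.9%) had a log2 fold change below 0, compared with 5912 of 12077 over all fragments, and the median was -0.34 against 0.01. Without each library in turn the median lay between -0.44 (without activated replicate 4) and -0.19 (without control replicate 2). Every activated library was below every control library in RPM for 31 fragments (6.47%, against 1.47% of all fragments) and above for 1 (0.209%, against 2.52%). Of the 31, 12 lay in the stretch 1027-1061. Among the 479, 5 reached 50 reads in the 4 control libraries and in 0 activated libraries, so the count minimum itself required them to be lower, and they are among the 373, the 52 and the 31. The other 474 had a median of -0.34, with 368 below 0, 47 lower at an unadjusted p under 0.05, 26 without overlap and 1 called by DESeq2. These counts are over fragments that passed the minimum and are given as a description. The fragments overlap one another in sequence and are not independent.

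The 3 fragments called by DESeq2 end at 2 positions, 913 and 1052. The fragments 893-913 and 894-913 passed the count minimum through the control libraries only, so their direction was set by that choice and their values are a description. The fragment 893-913 had 17, 16, 15 and 6 reads in activated and 63, 56, 109 and 57 reads in control mice, and 894-913 had 20, 37, 17 and 10 reads in activated and 67, 66, 106 and 87 reads in control mice. In RPM, the fragment 893-913 had 1.14, 0.915, 1.02 and 0.638 RPM in activated and 5.07, 2.42, 11.7 and 3.97 RPM in control mice. All activated libraries were low and the groups did not overlap, with control replicate 3 the highest. Its log2 fold change was -2.65 (SE 0.55, edgeR adjusted p = 0.0915), and DESeq2 gave an adjusted p of 0.000459. The fragment 894-913, 1 nt shorter at its 5′ end, had 1.34, 2.12, 1.15 and 1.06 RPM in activated and 5.39, 2.85, 11.4 and 6.06 RPM in control mice. The groups did not overlap here either, with a log2 fold change of -2.26 (SE 0.49, edgeR adjusted p = 0.113, DESeq2 adjusted p = 0.00251).

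The fragment 1037-1052 had at least 50 reads in all 8 libraries, with 8.12, 8.69, 5.83 and 12.6 RPM in activated and 26.9, 17.6, 42.5 and 21.7 RPM in control mice. The groups did not overlap, and its log2 fold change was -1.65 (SE 0.42, edgeR adjusted p = 0.218, DESeq2 adjusted p = 0.00414). Reads of any length that end at position 1052 had 40.8, 42.9, 36.9 and 43.1 RPM in activated and 76.6, 67.4, 185 and 69.7 RPM in control mice. Those that end at position 913 had 23.4, 15.3, 9.01 and 16.4 RPM in activated and 32.9, 30.1, 62.9 and 43.3 RPM in control mice. At both 3′ ends the activated libraries all lay below the control libraries. All 5 tested fragments ending at 1052 (15 to 24 nt) and all 4 ending at 913 (17 to 21 nt) had a log2 fold change below 0, with medians of -1.43 and -1.91, and 3 of the 4 ending at 913 had passed the count minimum through control libraries only. These ends were chosen after the values were seen and were not tested as sums. The 5 fragments of smallest p among the higher ones were 36-68 (log2 fold change 0.70), 195-228 (0.90), 228-255 (0.54), 305-320 (0.59) and 306-320 (0.79). The minimum of 50 reads was reached by 36-68 in 4 activated and 1 control library, by 195-228 in 3 and 1, and by 228-255 in 4 and 2. The count minimum thus favoured the higher direction for these 3, while 305-320 and 306-320 reached it in every library. The edgeR adjusted p of the 5 lay between 0.886 (195-228) and 0.970 (36-68). Where they had a value without 1 library, they ranged from 0.30 (305-320, without activated replicate 4) to 1.17 (195-228, without control replicate 3).

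**Figure D2:**
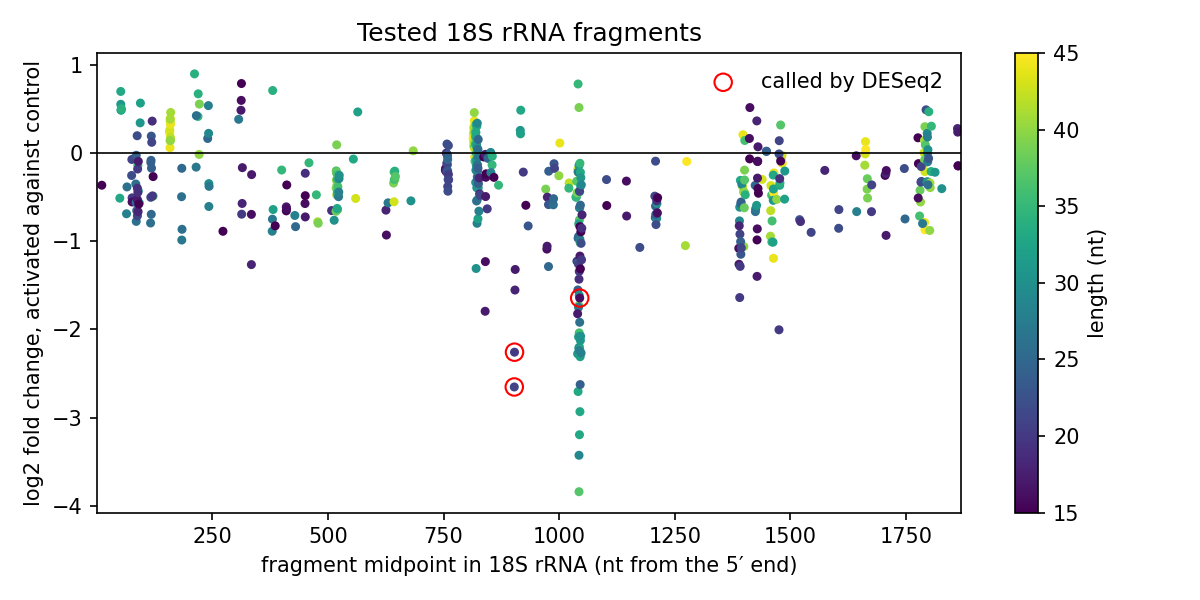
Log2 fold change of activated against control (vertical axis, edgeR) for the 479 tested fragments by midpoint in the 18S sequence (horizontal axis, nt), coloured by length. Circles mark the 3 fragments called by DESeq2; 373 points lie below 0, the lowest fall near positions 900 and 1045, and 2 of the circled fragments passed the count minimum through control libraries only.

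Coverage along 18S was uneven. Counting runs of bases with a mean coverage above 3 times that of the median base (140 RPM), a rule set after the data were seen, gave 7 stretches of 226 bases in total, and fragments centred in them held 50.7% of the 18S reads. The stretch at 747-771 held 15.3% of the reads. Of its reads 87.3% started at position 747 and 75.8% ended at position 771, and its GC content was 68%, against 55.9% over the whole 18S. Its reads summed to 1422, 3691, 947 and 3354 RPM in activated and 1971, 4193, 997 and 2195 RPM in control mice. The groups overlapped, with a ratio of the means of 1.01. Of its 19 tested fragments 17 were below 0, with a median log2 fold change of -0.20. The fragment 747-771 alone had 937, 2607, 610 and 2254 RPM in activated and 1319, 2919, 515 and 1485 RPM in control mice. The libraries spread widely within each group and the groups overlapped (log2 fold change -0.08, SE 0.61, edgeR adjusted p = 0.999). Its sign depended on the scaling, with 0.04 when only the library size was used, and on single libraries, with -0.38 without activated replicate 4 and 0.39 without control replicate 2.

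The stretch at 794-839 held 13.1% of the reads and had many 5′ ends, of which the leading one, position 795, had 19.4% of its reads. Its reads summed to 1665, 2432, 1872 and 2734 RPM in activated and 1879, 3069, 1595 and 1514 RPM in control mice, and the groups overlapped. Its 61 tested fragments had a median log2 fold change of 0.06, with 28 below 0. The fragment 796-837, the most abundant of 42 nt, had 145, 218, 175 and 278 RPM in activated and 165, 281, 93.8 and 110 RPM in control mice, also overlapping (log2 fold change 0.28, SE 0.41, edgeR adjusted p = 0.999). Its log2 fold change was 0.70 without control replicate 2, 0.14 without control replicate 3 and 0.02 without activated replicate 4.

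The stretch at 1027-1061 set control replicate 3 apart. It had 807, 667, 1024 and 655 RPM in activated and 995, 1066, 5570 and 921 RPM in control mice. Control replicate 3 was far above every other library, and the remaining libraries of the groups overlapped. Of its 63 tested fragments 61 were below 0, with a median of -1.17. The fragment 1034-1061 had 6.91, 8.52, 93.3 and 12.4 RPM in activated and 41.7, 11.9, 475 and 24.3 RPM in control mice, with replicate 3 high in both groups. Its log2 fold change of -2.27 (SE 1.25, edgeR adjusted p = 0.858, no p from DESeq2) became 0.21 without control replicate 3 and -3.85 without activated replicate 3. With a minimum of 1 read it passed the threshold (log2 fold change -2.12, edgeR adjusted p = 0.00282). Over the 416 tested fragments outside this stretch, 312 were below 0 and the median was -0.29.

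The stretch at 1382-1401 had 357, 336, 293 and 383 RPM in activated and 384, 540, 1205 and 392.2 RPM in control mice. The groups did not overlap, but activated replicate 4 and control replicate 1 lay next to each other. The fragment 1381-1400, centred in this stretch, had 3.15, 3.03, 1.83 and 2.23 RPM in activated and 4.03, 7.35, 14.4 and 5.23 RPM in control mice, again without overlap. It reached 50 reads in 1 activated and all 4 control libraries (log2 fold change -1.64, SE 0.48, edgeR adjusted p = 0.359). The stretch at 504-536 had 473, 492, 390 and 491 RPM in activated and 693, 524, 570 and 514 RPM in control mice, and the groups did not overlap. In the stretches at 1451-1486 and 1780-1810 they did overlap, with ratios of the means of 0.770 and 0.925.

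**Figure D3:**
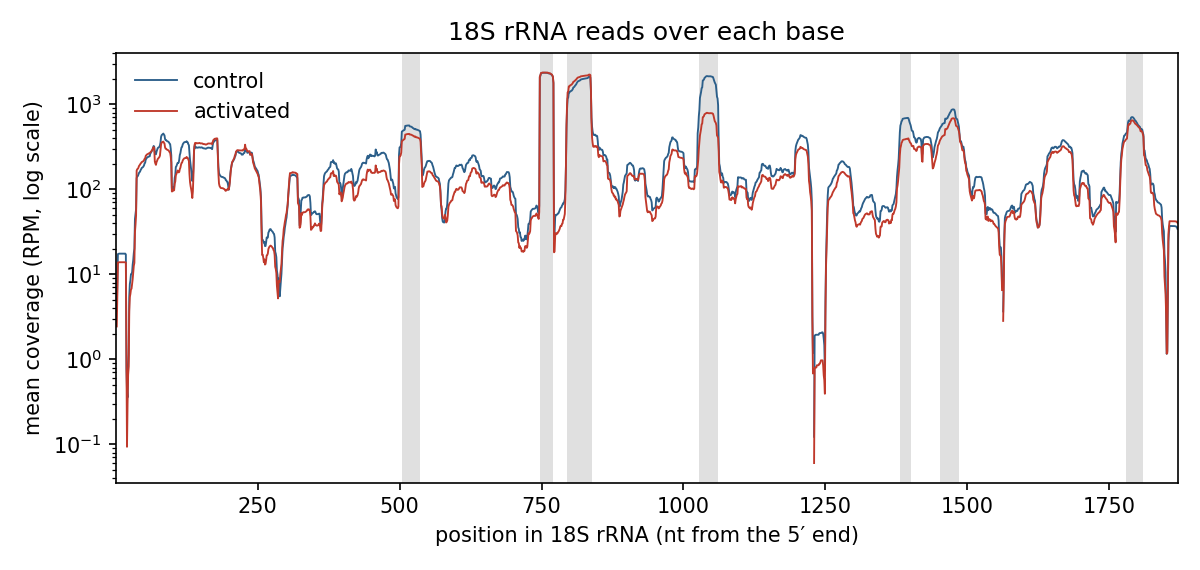
Mean coverage of each base of the 18S sequence by 18S-labelled reads (vertical axis, RPM, log scale) against position (horizontal axis, nt) in activated and control mice (means of n = 4). Grey bands are the 7 stretches; the control curve stands above the activated one at 1027-1061, where control replicate 3 had 5570 RPM.

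When reads were summed in windows of 100 nt by their 5′ end, edgeR called 0 of 19 windows, with 0 at an unadjusted p under 0.05 in either direction, against 5.97% lower among all 637 windows and RNA species tested together. DESeq2 called 0 of 18 windows and gave no p for the window 1001-1100, which had the lowest log2 fold change (-1.15) and in which control replicate 3 had 5887 RPM. The count lower at an unadjusted p under 0.05 was 8 without control replicate 4 (42.1%, against 10% of all) and 2 without control replicate 1 (10.5%, against 7.97%). It was 1 without control replicate 2 (5.26%, against 9.67%) and 1 without activated replicate 2 (5.26%, against 2.43%). With DESeq2 it was 5 (26.3%, against 6.91%), with library size only 3 (15.8%, against 7.22%), with the mitochondrial rRNA share as a covariate 3 (15.8%, against 4.08%) and among 38 windows of 50 nt 3 (7.89%, against 6.10%). The log2 fold change was below 0 in 17 of 19 windows, with a median of -0.30, against -0.06 over all 637. Without each library in turn the median lay between -0.47 (without control replicate 4) and -0.17 (without control replicate 3). In 3 windows, 501-600, 601-700 and 1801-1870, every activated library was below every control library (15.8%, against 1.57% of all windows and species). The windows are parts of the same RNA and are not independent, while the other rows are RNA species, so the shares are a description. The window 601-700 had 364, 356, 285 and 365 RPM in activated and 475, 494, 474 and 383 RPM in control mice (log2 fold change -0.36, SE 0.17, edgeR adjusted p = 0.546).

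The reads spanned 15 to 45 nt, with a peak at 25 nt and a lower one at 42 and 43 nt. At 17 nt the libraries had 483, 458, 302 and 468 RPM in activated and 567, 571, 809 and 578 RPM in control mice, and the groups did not overlap. At 25 nt they had 1276, 3019, 951 and 2610 RPM in activated and 1747, 3388, 1233 and 1844 RPM in control mice, and at 43 nt 540, 777, 632 and 828 RPM in activated and 623, 994, 611 and 434 RPM in control mice, with overlap at both lengths. Of the 62 bins of length and genome match, edgeR called 0, while 4 were lower and 0 higher at an unadjusted p under 0.05 (against 4.67% lower among all 642 bins), and DESeq2 called 0. The count of 4 became 0 without activated replicate 2 (0%, against 2.21% of all bins), without activated replicate 3 (against 2.37%) and without control replicate 3 (against 2.21%). It was 1 without activated replicate 1 (1.61%, against 3.27% of all bins) and 1 without activated replicate 4 (1.61%, against 1.87%). It was 2 without control replicate 4 (3.23%, against 5%), 7 with library size only (11.3%, against 7.01%) and 9 with the covariate (14.5%, against 5.92%). The 4 bins held genome-matching reads of 19, 20, 21 and 30 nt. In 9 of 62 bins (14.5%, against 4.36% of all bins) every activated library was below every control library, and they were the genome-matching reads of 15 to 21 nt and the reads of 17 and 18 nt without a genome match. The 18S bins are parts of the same RNA and are not independent, so this share too is a description.

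The log2 fold change of the tested fragments varied with their length. The median was -0.51 for the 115 fragments of 15 to 20 nt (104 below 0), -0.42 for 160 of 21 to 30 nt (138 below 0), -0.30 for 143 of 31 to 40 nt (103 below 0) and 0.05 for 61 of 41 to 45 nt (28 below 0). Outside the 2 stretches with most reads, the medians in the same order were -0.55, -0.56, -0.33 and -0.13. These differences between lengths were not tested, and the medians by length were not taken without single libraries. Both sets of medians include the stretch 1027-1061, where control replicate 3 was far above every other library. At 28 nt control replicate 3 had 1169 RPM and the nearest other control library 497 RPM, and at 33 nt 988 and 435 RPM.

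**Figure D4:**
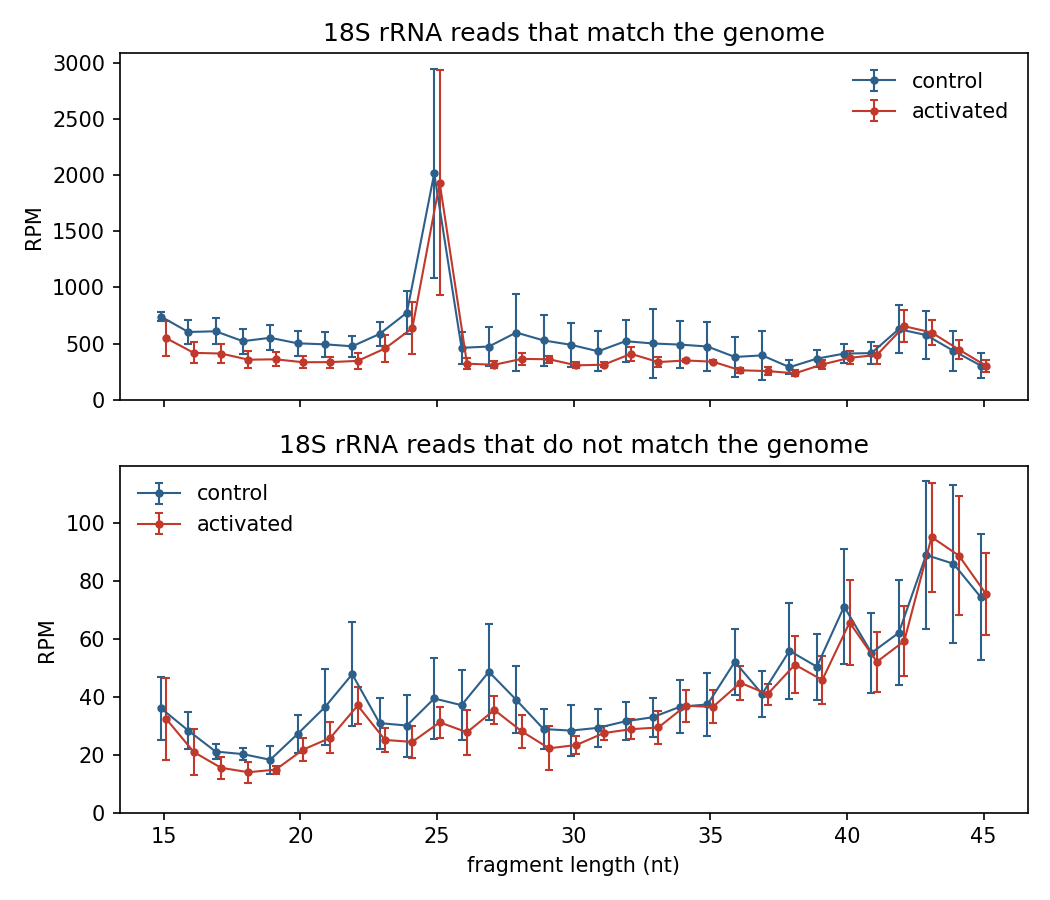
18S reads by fragment length (horizontal axis, nt) in RPM (vertical axis), for reads that match the genome (top) and reads that do not (bottom). Points are group means with SD (n = 4); in the top panel activated means lie below control means at every length except 42, 43 and 44 nt, and both groups peak at 25 nt.

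Reads without an exact match in mm10 made up 7.67% of the 18S reads, in 3469 fragments. Their level was 1176 ± 186 RPM in activated and 1321 ± 296 RPM in control mice (SD, n = 4 per group), and the groups overlapped. By window of the 5′ end, their share was 40.5% in the window that starts after position 100, 42.3% at 1601-1700 and 55.7% at 1701-1800, and 0% in 13 of 19 windows. Position 180 was covered only by reads that do not match, and they held 19.7% of all 18S reads without a match.

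18S 138-180: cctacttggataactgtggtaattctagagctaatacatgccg

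This fragment was the most abundant without a match, at 31.8, 36.8, 32.3 and 43.8 RPM in activated and 25.9, 43.0, 18.8 and 20.9 RPM in control mice, and the groups overlapped (log2 fold change 0.36, SE 0.36, edgeR adjusted p = 0.999). Its log2 fold change was 0.68 without control replicate 2 and 0.20 without activated replicate 4. At the difference C1779T, 99.5% of the 18S reads over the base did not match the genome, while at G1045T 0 of 146501 reads failed to match, although Gm42418 differs at both bases. Of the 1473684 18S reads in the aligned part, 1207464 were found exactly in Gm42418 and 166066 more were labelled as matching the genome but are not in Gm42418.

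The label leaves out part of the molecule. Of the 2057490 reads that lie inside the rebuilt sequence, 93.0% had the 18S label. No 18S-labelled read covered positions 1, 1229 or 1562, where 73053, 43547 and 12626 reads had other labels, such as an rRNA entry of another database at the 5′ end and lincRNA at the other positions. The leading fragments over positions 1 and 1229 are shown, with that base in capitals.

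18S 1-44: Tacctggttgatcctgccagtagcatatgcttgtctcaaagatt
18S 1197-1240: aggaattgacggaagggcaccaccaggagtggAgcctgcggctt

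The fragment 1-44 holds the mature 5′ end of 18S and had 155, 333, 295 and 198 RPM in activated and 226, 292, 320 and 198 RPM in control mice, with overlap (log2 fold change -0.18, SE 0.30, edgeR adjusted p = 0.999). Of the 33 tested fragments inside 18S with another label 30 were below 0, with a median of -0.59, and the groups overlapped for all 33. The median was -0.25 without control replicate 2 and -0.30 without control replicate 3. edgeR called 0, with 4 lower at an unadjusted p under 0.05 (12.1%, against 4.12% of all fragments), and control replicate 3 was the highest library in all 4. That count was 1 without control replicate 3 (3.33%, against 2.7% of all fragments) and 2 without activated replicate 4 (6.06%, against 2.21%). It was 0 without activated replicate 1 (0%, against 4.51%) and 0 without activated replicate 2 (0%, against 2.57%). With the replicate block it was 2 (6.06%, against 1.95%). DESeq2 called 0 of 31 and gave no p for 2 of the 4, the fragments 1-43 and 1-36. The fragment 1-36, chosen after its values were seen, had 6.04, 8.75, 24.1 and 7.76 RPM in activated and 15.2, 11.3, 224 and 14.9 RPM in control mice, with control replicate 3 far above the rest. Counting all reads inside the sequence, the ratio of activated to control was 0.785 (exact permutation test, p = 0.171, n = 4 per group).

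Other rRNAs were compared in the same way. Of 1837 tested 28S fragments edgeR called 0, while 89 were lower (4.84%, near the 4.12% of all fragments) and 1 was higher at an unadjusted p under 0.05. The 89 became 42 without control replicate 3 (2.4%, against 2.7% of all fragments) and 54 without activated replicate 1 (3.12%, against 4.51%). The count was 58 without activated replicate 2 (3.67%, against 2.57%) and 59 without activated replicate 3 (3.43%, against 3.33%). With the replicate block it was 49 (2.67%, against 1.95%), and with library size only 59 (3.21%, against 3.53%). DESeq2 called 6, all lower (0.327%, below the 0.373% of all fragments). Below 0 were 72.0% of the 28S fragments, with a median of -0.22, which was -0.07 without control replicate 2, -0.08 without activated replicate 3 and -0.13 without control replicate 3. At an unadjusted p under 0.05, 14 of 103 tested 5.8S fragments (13.6%), 18 of 63 fragments of the 45S precursor (28.6%) and 2 of 19 of 4.5S (10.5%) were lower in the main fit. These shares were near or above that of 18S (10.9%), while 5S had 3 of 208 (1.44%). The order depended on the setting. With the replicate block, 5 of 5.8S (4.85%), 9 of 45S (14.3%) and 1 of 4.5S (5.26%) were lower, against 7.93% of 18S and 1.95% of all fragments. With a minimum of 10 reads the shares were 5.54% for 5.8S, 24.6% for 45S and 2.74% for 4.5S, against 9.16% of 18S and 3.08% of all fragments. The 14 of 5.8S became 4 without activated replicate 2 (4.6%, against 2.57% of all fragments) and 9 without activated replicate 3 (9.47%, against 3.33%). They became 6 without activated replicate 4 (5.88%, against 2.21%), 9 without control replicate 2 (10.7%, against 4.52%) and 5 without control replicate 3 (5.15%, against 2.7%). The 18 of 45S became 7 without activated replicate 2 (11.3%, against 2.57% of all fragments) and 7 without activated replicate 4 (11.1%, against 2.21%). They became 30 without control replicate 1 (47.6%, against 5.63%) and 6 without control replicate 3 (10.5%, against 2.7%). The 3 of 5S ranged from 0 without control replicate 4 (0%, against 3.08%) to 6 without activated replicate 4 (2.9%, against 2.21%). The 2 of 4.5S became 1 (5.26%) without activated replicates 2, 3 or 4 or control replicate 3. In these runs 2.57%, 3.33%, 2.21% and 2.7% of all fragments were lower, in that order. For 5.8S rRNA 75 of 103 were below 0 (median -0.35, and -0.14 without activated replicate 3), for 5S rRNA 166 of 208 (median -0.18, -0.11 without control replicate 3 and -0.12 without control replicate 4), and for the 45S precursor 60 of 63 (median -0.89, and -0.46 without control replicate 3). The summed 45S level was 1304, 1026, 1293 and 1129 RPM in activated and 1511, 1681, 4692 and 1414 RPM in control mice. The groups did not overlap, and control replicate 3 was again the highest. Of the mitochondrial fragments, 386 of 1239 labelled 16S and 22 of 206 labelled Mt_rRNA were below 0. These counts, and the numbers tested, depended on single libraries of both groups. Those labelled 16S were 46 of 848 without control replicate 3, 832 of 1237 without control replicate 4 and 558 of 747 without activated replicate 2. Those labelled Mt_rRNA were 0 of 45 without control replicate 3, 97 of 204 without control replicate 2 and 21 of 43 without activated replicate 2. For 4.5S rRNA 11 of 19 were below 0, and no 12S fragment reached the count minimum. Across these other rRNAs edgeR called 0, and DESeq2 called, beside the 6 of 28S, 1 lower among the 4.5S fragments. It gave no p for 23 of the 28S, 4 of the 5.8S and 6 of the 45S fragments.

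**Figure D5:**
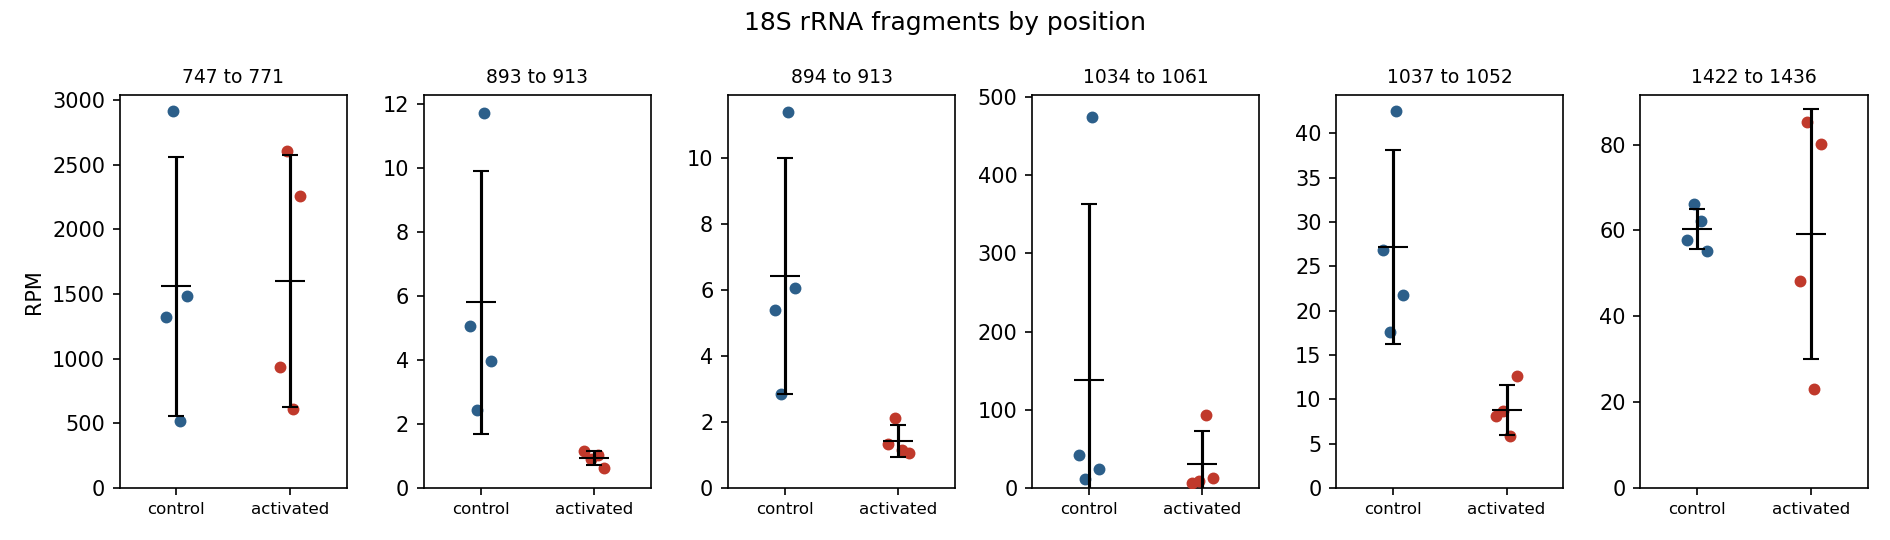
RPM (vertical axes) of 6 fragments, titled by position in 18S, in control and activated mice. Points are libraries and bars the mean and SD (n = 4), with axes starting at 0; the groups do not overlap for 893 to 913, 894 to 913 and 1037 to 1052, of which the first 2 passed the count minimum through control libraries only, and control replicate 3 reaches 475 RPM for 1034 to 1061.

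Marker miRNAs were used to check the sperm label. All 16 miRNAs listed for the male germ line were detected, with a summed level of 124122, 107781, 88633 and 141389 RPM in activated and 101439, 116317, 69718 and 103606 RPM in control mice, and miR-191 was the most abundant in all 8. Its mean was 67534 of 115481 RPM in activated and 58633 of 97770 RPM in control mice. The sum thus rests mostly on miR-191, whose specificity for the germ line was not tested. All 7 epithelial miRNAs were detected too, led by miR-200c in 5 libraries and by miR-141 in activated replicates 1 and 4 and control replicate 2, with 3476, 1166, 1085 and 1196 RPM in activated and 1364, 1825, 2733 and 19420 RPM in control mice. Those of smooth muscle and vessel (5 of 5 detected, led by miR-143 in 6 libraries and by miR-145a in control replicates 3 and 4) had 525, 258, 180 and 374 RPM in activated and 255, 445, 307 and 36491 RPM in control mice. Control replicate 4 thus stood apart in both lists. The erythrocyte miRNAs (4 of 4, led by miR-451a in 7 libraries and by miR-486a in control replicate 4) had 298, 83.5, 113 and 84.1 RPM in activated and 235, 532, 976 and 659 RPM in control mice, and the leukocyte miRNAs (4 of 4, led by miR-142a in all 8) 862, 398, 655 and 581 RPM in activated and 343, 454, 295 and 553 RPM in control mice. None of the listed miRNAs was at 0 in all libraries. Fewer cells of a type and less RNA per cell cannot be told apart in these bulk libraries, and the part of these markers in the 18S values was not tested. Without control replicate 4 the ratio of summed 18S reads was 0.732, and without control replicate 3 it was 0.861.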

How the data were processed

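Small RNA of sperm from 4 activated and 4 control mice was compared, grouped by the deposited labels. The deposited counts give the unnormalized reads per fragment, made by the authors after trimming, keeping 15 to 45 nt and exact matching to mm10 and to RNA databases with SPORTS1.1. The expected counts per annotation class, also deposited by the authors, were used only to check the 18S totals, which were equal. Library totals ranged from 9297271 to 23123740 reads, and the spread between mice was taken as the error. The 18S sequence was rebuilt from overlaps of 13 nt among the 18S fragments. The pieces were joined by fragments with other labels that hold at least 9 nt on each side. Fragments, bins of length and genome match, and windows of 100 nt with at least 50 reads in at least 4 libraries were tested across the whole table with edgeR 4.0.16 (TMM, quasi-likelihood, Benjamini-Hochberg adjustment) in R 4.3.3. SE was taken as the log2 fold change over the root of F. DESeq2 1.42.0 with apeglm 1.24.0 was the alternative. Summed levels were tested by exact permutation (two-sided). Tables and figures were made with Python 3.11.15, numpy 2.4.6, pandas 2.3.3, matplotlib 3.10.9 and biopython 1.88. Named fragments are the 10 tested fragments of highest mean RPM, those called by edgeR or DESeq2, the 5 of smallest p in each direction, the most abundant without a genome match, and the leading fragment of the 3 windows and of the 3 lengths with most reads. Members and lists were chosen with earlier results of these data known. Alternatives were other scalings, minimums of 1, 10 and 100 reads, no fold change minimum, genome-matching or annotated fragments only, a replicate block, the mitochondrial rRNA share as a covariate, windows of 50 nt, other denominators and leaving out each library. Counting reads of any label and the split by mitochondrial rRNA were added after the data were seen.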

Additional observations from a re-analysis of the deposited data

Results flagged for a closer look

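In 126 groups of 4 libraries, 15 had a library far from the other 3, where chance gives about 1 in 20, and 6 of the 15 were control replicate 3. Some groups share reads, such as the window 1001-1100, the stretch 1027-1061 and the fragment 1034-1061. The groups are therefore not independent, and the count is a description. That library had 5887 RPM in the window 1001-1100 (the nearest other control library had 1404), 5570 RPM in the stretch 1027-1061, 475 RPM of the fragment 1034-1061, 758 RPM in the window 301-400, 825 RPM in the window 501-600 and 4692 RPM of 45S rRNA. Activated replicate 3 had 93.3 RPM of the fragment 1034-1061 and was low in the window 601-700, at 285 RPM. Activated replicate 2 was high in the stretch 1780-1810, at 864 RPM. Control replicate 2 was high for the fragment 36-68, at 6.57 RPM, and activated replicate 4 for 4.5S rRNA, at 626 RPM. Control replicate 4 had 19420 RPM of the epithelial and 36491 RPM of the smooth muscle and vessel miRNAs. Activated replicate 1 had 3476 RPM of the epithelial and 298 RPM of the erythrocyte miRNAs. The part of these libraries in the 18S differences was not tested beyond leaving each out.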

How the results depend on the processing

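The count of 18S fragments called by edgeR was 0 and became 3 with DESeq2 (460 with a p) and 62 (2 higher, 60 lower of 16772 tested) with a minimum of 1 read, where 0.370% of 18S and 0.722% of all 387985 fragments were called, and 0.358% and 0.272% were called lower. It was 0 under the other alternatives, including the replicate block (0), reads of any label, and leaving out each library (0 to 0). For length bins and windows the count was 0 in every alternative run, with the replicate block 0 and without each library 0 to 0. With the block, 0 bins were lower at an unadjusted p under 0.05 (0%, against 3.12% of all bins), compared with 4 without it. DESeq2 gave no p for the window 1001-1100 or the fragment 1034-1061, so for these only its direction was compared. No row named 18S together with another rRNA, so that membership gave no value. The ratio of summed 18S reads ranged from 0.732 to 0.861 without each library, was 0.793 (p = 0.25, exact sign-flip permutation test, n = 4 pairs, smallest possible 0.125) with the replicate block, and was 0.746, 0.874, 0.899 and 0.763 relative to genome-matching, all rRNA, nuclear rRNA and TMM-scaled reads; none passed the test. Library size scaling moved the median of all length bins from -0.02 to -0.14. Same-numbered libraries deviated in opposite directions for replicates 1 and 2 (r = -0.63 and -0.50) and together for replicates 3 and 4 (r = 0.57 and 0.47). Of the activated libraries, replicate 3 alone correlated best with its own number. Not every pair deviated together, so the numbers were not taken as pairs. Of 394 values for the 23 named fragments, 362 kept direction and side of the threshold, 5 passed it (893-913, 894-913 and 1037-1052 with DESeq2; 893-913 and 1034-1061 with a minimum of 1 read, adjusted p = 0.0200 and 0.00282) and 27, in 9 fragments, changed sign, none of them past the threshold; the cause was not tested. The fragments 893-913 and 894-913 fell under the count minimum in the 4 runs that left out a control library and have no value there. 747-770 (-0.04) became 0.0013 (DESeq2), 0.0087 (median-ratio), 0.069 (library size), 0.042 (genome-matching), 0.077 (annotated) and 0.13 (mitochondrial covariate). 747-771 (-0.08) became 0.039 (library size), 0.016 (genome-matching), 0.051 (annotated) and 0.12 (covariate). Without each library in turn, 747-770 ranged from -0.41 to 0.40, 747-771 from -0.38 to 0.39, 749-771 from -0.56 to 0.045, 794-836 from -0.12 to 0.54, 794-837 from -0.030 to 0.68, 795-836 from -0.079 to 0.52, 798-837 from -0.12 to 0.58, 1422-1436 from -0.35 to 0.24 and 1034-1061 from -3.85 (without activated replicate 3) to 0.21 (without control replicate 3). With 4 mice per group, fragments near 50 reads rest on few reads in each library.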
